A study of Homo sapiens with 4 samples.

Results

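The mitochondrial ribosome makes the small set of inner-membrane proteins that are encoded by mitochondrial DNA. Its RNAs come from that genome, but all of its proteins are encoded in the nucleus, translated in the cytosol and imported. They are named MRPL for the large subunit, which forms the peptide bonds, and MRPS for the small subunit, which reads the messenger RNA. Their levels were measured in BJ-TE, a cell line made from human foreskin fibroblasts of the BJ strain, on 4 Affymetrix arrays of 22277 probe sets. All probe sets annotated to exactly 1 gene with a current symbol starting with MRPL or MRPS were taken, 64 of the 22277. They stand for 51 genes, 31 of the large subunit (35 probe sets) and 20 of the small subunit (29 probe sets), among 11963 genes with such a probe set. RefSeq lists 77 protein-coding genes with these symbols, and the other 26 had no single-gene probe set in the annotation and were not analysed here.

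The transcription factor p73 was targeted with a hairpin RNA (p73 shRNA), other cells received the control hairpin named ns (ns shRNA), and both were collected at 40% or 100% confluence. This gives 4 groups of 1 array each: ns shRNA at 40%, p73 shRNA at 40%, ns shRNA at 100% and p73 shRNA at 100% confluence. The series addresses p73 in malignant transformation. It uses 1 line, and whether the 4 cultures were independent is not stated in the labels.

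No group had a replicate, so precision is limited by there being 4 arrays in all. TP73 gave no check of the hairpin, since its only probe set lay at intensities of 1.65 to 2.09 on the 4 arrays, at the floor. All 12 fibroblast markers examined lay above the brightness filter, as did 1 of 7 epithelial markers (KRT18) and none of the 7 blood and endothelial markers on the array. The array-wide median intensity was 105 to 106 at 40% and 120 to 122 at 100% confluence. The 3' to 5' ratio of the beta-actin controls, which gauges how intact the RNA was, stood at 1.09 to 1.24 at 40% and 1.38 to 1.47 at 100%. That of the GAPDH controls differed less, at 0.935 to 0.979 at 40% and 1.02 on both arrays at 100%.

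Each gene was represented by its brightest probe set, on the scale log2(intensity + 11.55), and kept when its mean over the arrays reached 6.94 on that scale, an intensity of about 111. This retained 47 mitoribosomal genes, 28 of the large and 19 of the small subunit, among 6759 genes. Their median log2 value was 10.25, against 9.30 for all genes kept. MRPL2, with intensities of 178 to 252, was the nearest to the filter from above. The 4 that did not reach it were MRPL44 (82.2 to 135), MRPL52 (61.3 to 113), MRPS18C (11.2 to 28.2) and MRPL41 (3.01 to 14.2), which are given here by their range only. An additive limma model over all 4 arrays tested the effect of confluence averaged over both hairpins, and that of the p73 hairpin averaged over both stages, with Benjamini-Hochberg adjustment over all 6759 genes. Genes are said to have risen or fallen when the adjusted p was below 0.05.

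Confluence was compared with growth at 40% to find which mitoribosomal genes differ between the stages. Transcripts of both subunits were lower in confluent cells: 24 of the 47 genes fell, none rose and 23 did not pass the test. Of all genes tested, 16.1% fell and 20.4% rose. With the median of all genes set equal on the arrays, 1308 of the 6759 fell and 1189 rose, and of the 47 mitoribosomal genes 26 fell and none rose. The median log2 change of the 47 was -0.39 on average, -0.38 with ns shRNA and -0.37 with p73 shRNA, against 0.01 for all genes. The call averages the ratios of both hairpins, so agreement between them among called genes is not independent of it. All 24 that fell were lower with either hairpin, and on each of them both arrays of confluent cells lay below both arrays at 40%. Such a separation downwards was seen for 33 of the 47 genes and for 30.8% of all genes, and the opposite separation for 1 of 47 (MRPS31) and 33.7% of all genes. The mitoribosomal genes are brighter than most, so the 1235 other genes within the middle 50% of their brightness range (log2 9.74 to 10.75) were examined too. Of these, 19.3% fell, with a median change of -0.01.

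These intensities are relative to the total signal of each array. Fewer cells with a transcript and less of it per cell cannot be told apart in such bulk RNA. Handling that differed between the stages would enter the comparison, and the higher beta-actin 3' to 5' ratio of both confluent arrays moves with it, and its part in the result was not tested.

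**Figure D1:**
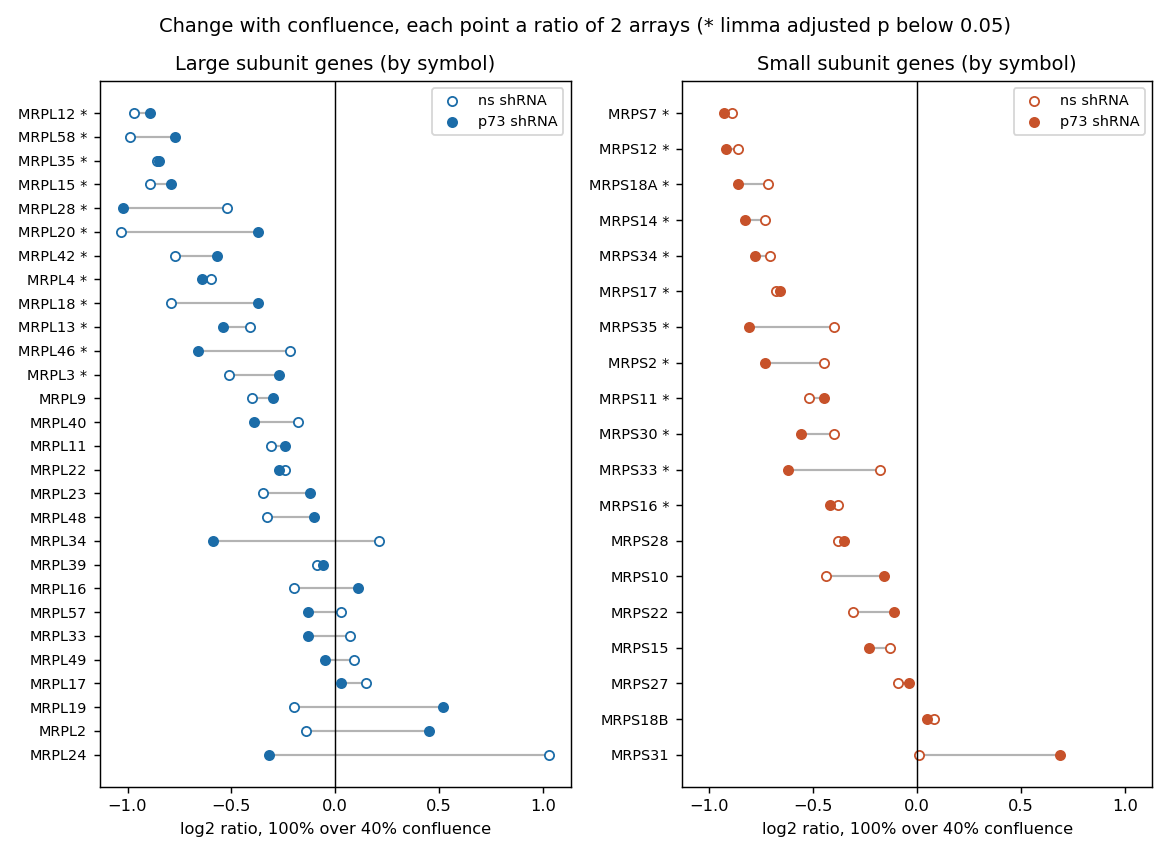
Log2 ratio of intensity at 100% over 40% confluence (x axis) for each of the 47 mitoribosomal genes above the brightness filter, with ns shRNA (open circles) and p73 shRNA (filled circles), large subunit left and small subunit right; an asterisk marks the 24 genes with a limma adjusted p below 0.05. Both circles of every starred gene lie left of 0, and MRPL24 and MRPL34 have circles far apart on opposite sides.

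The largest falls were found in proteins of both subunits. MRPL12, the counterpart of the bacterial stalk protein that contacts translation factors, had intensities of 943 (ns) and 1183 (p73 shRNA) at 40%, and of 475 and 634 at 100% confluence. It fell by 0.93 on the log2 scale, or 1.90-fold (SE 0.17, limma adjusted p 9.07e-07). MRPS7, a protein of the small-subunit head, went from 1772 and 2370 at 40% to 952 and 1235 at 100%, an average change of -0.91 (SE 0.15, limma adjusted p 6.07e-08). On both genes the p73 shRNA array was the brighter one at each stage, and the ranges of the stages did not overlap.

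MRPS12, the counterpart of the bacterial decoding-centre protein in which streptomycin resistance arises, had intensities of 1393 and 1534 at 40% and 765 and 803 at 100% confluence. Its average change was -0.89 (SE 0.16, limma adjusted p 5.63e-07), and the array pairs of each stage lay close together. MRPL58, a peptidyl-tRNA hydrolase that became part of the large subunit, went from 1472 and 1487 to 737 and 865, a change of -0.88 (limma adjusted p 7.01e-07). MRPL35 went from 890 and 978 to 484 and 538, with a change of -0.86 (limma adjusted p 1.17e-05). Its ratios with either hairpin were nearly equal, at -0.86 and -0.85.

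MRPL15 had intensities of 2750 and 2535 at 40% and 1482 and 1456 at 100% confluence, and fell by 0.84 (limma adjusted p 2.67e-07). MRPS14 went from 1641 and 1708 to 982 and 952, a change of -0.78 (limma adjusted p 7.24e-06). MRPS18A went from 485 and 563 to 289 and 304, a change of -0.79 (SE 0.20, limma adjusted p 0.000538). MRPS18A is 1 of 3 human relatives of the bacterial protein S18, and despite its symbol it lies in the large subunit of the assembled ribosome. These 8 genes had ratios of -0.72 or lower with each hairpin. Without the intensity trend in the limma model their adjusted p lay between 0.0008 and 0.00275.

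**Figure D2:**
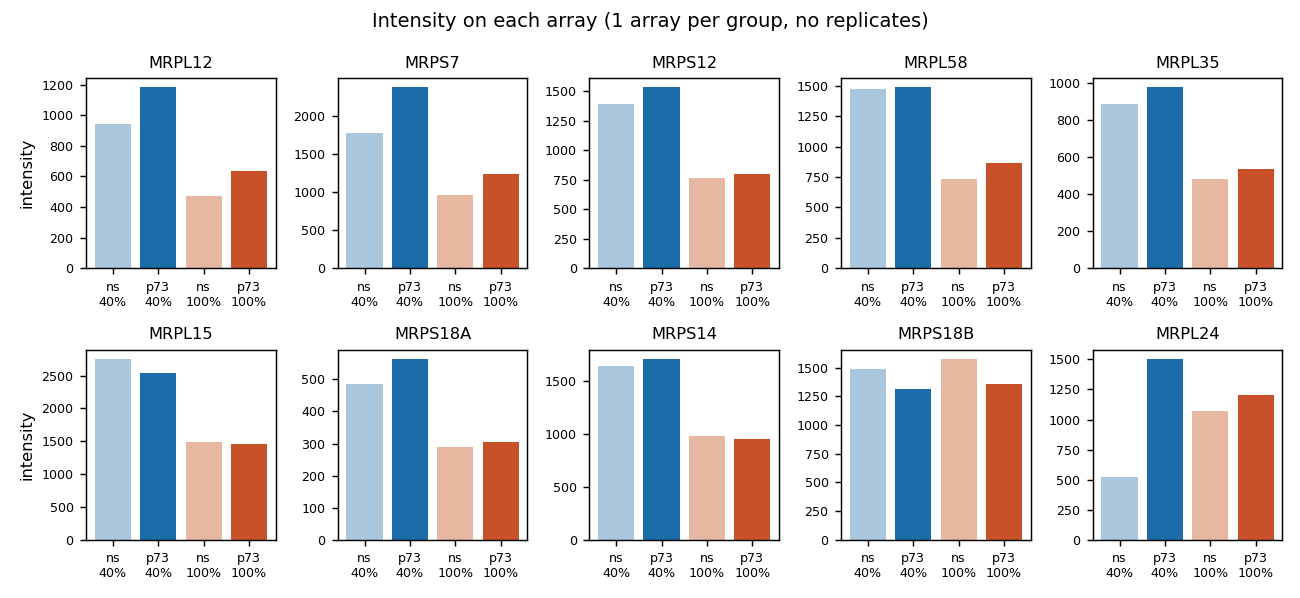
Intensity (y axis, linear, from 0, scaled per panel) on each of the 4 arrays for the 8 mitoribosomal genes with the largest falls at confluence, and for MRPS18B and MRPL24. In the first 8 panels both bars of 100% confluence are below both bars of 40%; MRPS18B shows nearly level bars, and MRPL24 is low on the ns array at 40% alone, at 518.

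The other 16 genes that fell averaged from -0.77 to -0.39 (limma adjusted p from 2.94e-05 to 0.0496). Those of the large subunit were MRPL28 (-0.77), MRPL20 (-0.70), MRPL42 (-0.67), MRPL4 (-0.62), MRPL18 (-0.58), MRPL13 (-0.47), MRPL46 (-0.44) and MRPL3 (-0.39). MRPL4 lines the tunnel through which the nascent chain leaves the ribosome, MRPL3 lies in the core near the peptidyl transferase centre, and MRPL18 and MRPL46 belong to the central protuberance. Those of the small subunit were MRPS34 (-0.74), MRPS17 (-0.67), MRPS35 (-0.60), MRPS2 (-0.59), MRPS11 (-0.49), MRPS30 (-0.48), MRPS33 (-0.40) and MRPS16 (-0.40). MRPL3 had intensities of 6204 and 5533 at 40% and 4350 and 4588 at 100% confluence, MRPL13 of 2704 and 3064 against 2031 and 2110, and MRPS34 of 595 and 800 against 360 and 462. Stages did not overlap for any of these 3. Like MRPS18A, MRPS30 lies in the large subunit despite its symbol. MRPS28 missed the threshold: its intensities were 1237 and 1315 at 40% and 949 and 1027 at 100% confluence, a change of -0.37 (SE 0.16, limma adjusted p 0.0592).

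Among the 23 genes that did not pass, 16 had an average below 0 and 7 above. Average log2 changes within 0.1 of 0 were those of MRPL16 (-0.05), MRPL17 (0.09), MRPL33 (-0.03), MRPL39 (-0.08), MRPL49 (0.02), MRPL57 (-0.05), MRPS18B (0.06) and MRPS27 (-0.06), a pentatricopeptide repeat protein. MRPL17 had intensities of 2509 and 3217 at 40% and of 2795 and 3274 at 100%, so its stages overlapped. MRPL57, with 3132 and 4346 at 40% and 3194 and 3958 at 100%, was alike in this. MRPL2, a protein of the peptidyl transferase centre, had intensities of 197 and 182 at 40% and 178 and 252 at 100%, an average change of 0.16. The 2 with the highest averages were MRPL24 (0.36, limma adjusted p 0.0735) and MRPS31 (0.35, limma adjusted p 0.0834). MRPS31 had intensities of 809, 759 and 817 on 3 arrays and of 1233 on the p73 shRNA array at 100%. Its dimmer probe set had 688 and 522 at 40% and 577 and 737 at 100%. There the stages overlapped, and the average change was 0.12.

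The hairpins gave like ratios for most of the genes, as they did over all genes. Across the 47 genes the ratio with ns shRNA and that with p73 shRNA, which share no array, had a Pearson r of 0.58 and a Spearman rho of 0.71. Over all 6759 genes r was 0.77. The genes of 1 array share its scaling, so this is a description. The median absolute difference of the ratios was 0.16 on the log2 scale, against 0.24 for all genes. The mitoribosomal genes are brighter, with a median log2 value of 10.25 against 9.30, and genes of like brightness were not compared here. In 7 of the 47 genes the ratios were at least 0.5 apart, as they were in 18.8% of all genes. The widest differences (p73 minus ns shRNA) were those of MRPL24 (-1.35), MRPL34 (-0.79), MRPL19 (0.73) and MRPS31 (0.68). MRPL34 had a ratio of 0.21 with ns and -0.59 with p73 shRNA, and MRPL19 one of -0.20 and 0.52. A difference between the ratios has no test in this design.

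The subunits were then compared. Of the large-subunit genes 12 of 28 fell (42.9%), with a median change of -0.28, and of the small-subunit genes 12 of 19 (63.2%), with a median of -0.48. With ns shRNA the medians were -0.32 (large) and -0.40 (small), and with p73 shRNA -0.31 and -0.56. Both confluent arrays lay below both arrays at 40% for 16 of 28 large-subunit and 17 of 19 small-subunit genes. The median log2 value of the large-subunit genes was 10.42 and 10.62 at 40% and 10.15 and 10.54 at 100% confluence, for ns and p73 shRNA. For the small-subunit genes it was 10.33 and 10.37 at 40%, and 9.88 and 9.95 at 100%. Thus both groups were lower at confluence with either hairpin, and the small subunit by more.

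That gap depended on how genes and probe sets were assigned. With MRPS18A and MRPS30 counted in the large subunit, where they lie, the medians were -0.32 for 30 genes and -0.40 for 17. With the mean of all probe sets of a gene in place of the brightest, they were -0.28 and -0.30. After quantile normalization they were -0.30 and -0.50, and with the median of all genes set equal on the arrays -0.33 and -0.53. No test of the difference between subunits was made, because genes are not replicates.

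**Figure D3:**
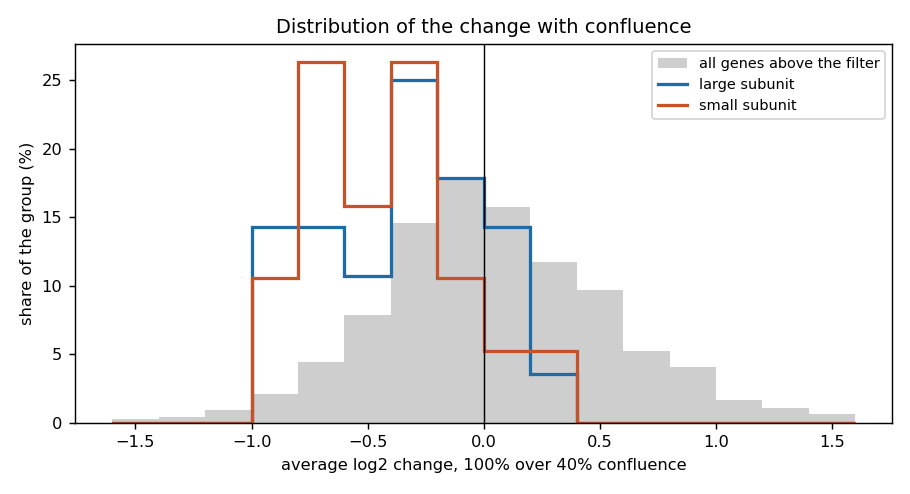
Share of genes (y axis, percent of the group) by average log2 change at 100% over 40% confluence (x axis, bins of 0.2) for all 6759 genes above the filter (grey), the 28 large-subunit genes (blue) and the 19 small-subunit genes (orange). All genes centre near 0, while both subunits lie mostly to its left, with medians of -0.28 and -0.48.

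Proteins inherited from the bacterial ancestor were set beside those named as mitochondria-specific in the common nomenclature of ribosomal proteins. That naming puts MRPS18A and MRPS18B, although relatives of S18, among the latter. Of 30 genes named for a bacterial counterpart 16 fell (median -0.39), and of 17 named as mitochondria-specific 8 fell (median -0.29). With both S18 relatives counted as counterparts, 17 of 32 and 7 of 15 fell, with the same medians. Among MRPS genes all 10 named for a counterpart were lower on both confluent arrays than on both arrays at 40%, and 7 of them fell. Of the 9 MRPS genes named as mitochondria-specific 7 were separated in this way and 5 fell, or 6 and 4 of 7 without the S18 relatives. Of the MRPL genes, 9 of 20 counterparts and 3 of 8 mitochondria-specific ones fell, and 11 of 20 and 5 of 8 were separated in this way. Over both subunits the separation was alike in the 2 classes. It was seen for 21 of 30 counterparts (70%) and 12 of 17 mitochondria-specific genes (70.6%), against 30.8% of all genes.

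Second probe sets did not always follow the brightest one. For 10 genes the array has more than 1 probe set, and in 8 of them more than 1 lay above the filter. MRPS18A was lower by both, at -0.79 and -0.69. MRPL9 averaged -0.35 on its brighter probe set (limma adjusted p 0.0503) and -0.78 on the other, which went from 1005 and 1207 to 593 and 682. In MRPS18B the brighter probe set averaged 0.06, going from 1491 and 1315 at 40% to 1574 and 1360 at full confluence. Its other probe set went from 1203 and 1443 to 753 and 1035, a change of -0.57 (limma adjusted p 0.00227 in a fit with 1 row per probe set).

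Dimmer probe sets of MRPS11, MRPS14 and MRPS30 changed by 0.30, 0.32 and 0.33, opposite to the brightest ones, and none of the 3 passed in that fit. MRPL57 had changes of -0.05, 0.55 and 0.67 on its 3 probe sets, of which the second passed (limma adjusted p 0.0184 in the same fit). MRPS12 had 3 further probe sets below the filter. The dimmest of them had intensities of 7.97 and 9.87 at 40% and 76.6 and 47.7 at 100% confluence, and another went from 154 and 207 to 52.4 and 61.7. With the mean of probe sets, MRPS12 changed by -0.19, MRPS14 by -0.23 and MRPS30 by -0.08, and their calls were lost. Pseudogenes can add to a signal: RefSeq names at least 1 for 26 of the 51 genes, with 8 for MRPL57 and 3 for MRPS31. Of the 22 genes above the filter without a named pseudogene 12 fell (median -0.46), and of the 25 with one 12 fell (median -0.35).

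**Figure D4:**
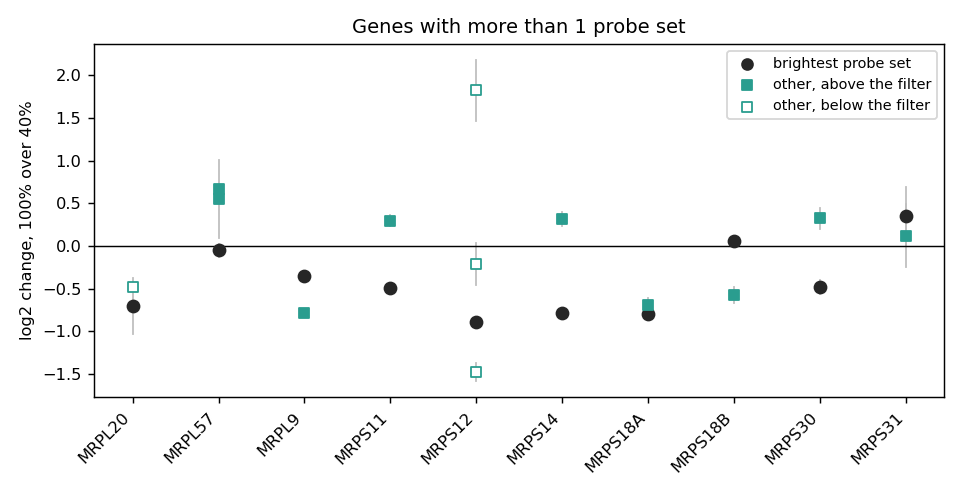
Log2 change at 100% over 40% confluence (y axis) for every probe set of the 10 mitoribosomal genes with more than 1. Points are the average of both hairpins and grey lines join the ratios of the hairpins. MRPL9 and MRPS18A have all points below 0, while in MRPS11, MRPS14 and MRPS30 the dimmer probe set lies above 0 and the brightest below.

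Because many of these genes were lower together, the letters before their start sites were examined. RefSeq promoter windows (GRCh38.p14, 250 bases before to 50 after the start) were given for 45 of the 51 genes, and not for MRPL2, MRPL13, MRPL15, MRPL23, MRPL35 and MRPS28. Both strands were searched. CCGGAAG, the core bound by ETS factors such as GABPA, was found in at least 1 window of 19 of the 45 genes (42.2%), against 24.2% of the 5716 genes above the filter with a window and 12.2% of all 27305 genes. AANATGGC, the YY1 motif, was found in 15 of 45 (33.3%), against 15.1% and 7.97%. Either was found in 29 of 45 (64.4%), against 35.5% and 18.7%. The ETS core and the YY1 motif can share bases; 5 of the 45 genes held both, and in none of them did matches overlap.

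Of the genes that fell and had a window, 10 of 21 held the ETS core and 8 of 21 the YY1 motif. Of those that did not pass, 7 of 20 held the ETS core and 6 of 20 the YY1 motif. The 10-base NRF1 palindrome was found in 1 of 45 genes (2.22%), against 2.99% of the genes above the filter and 1.52% of all genes. With any base allowed at 1 middle position it was found in 4 of 45 (8.89%), against 14.6% and 6.98%. The E-box CACGTG was found in 5 of 45 (11.1%), against 13.5% and 8.77%, and the ERR motif TCAAGGTCA in 0 of 45, against 0.157% and 0.432%.

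Stretches with the ETS core are shown for 5 genes that fell and then for 3 that did not pass, since both kinds hold it. Each runs 5' to 3' on the strand of its gene and ends at or before the base next to the start site, and capitals mark the core on either strand. MRPS34 (minus strand, chr16:1773135-1773235) changed by -0.74, MRPL20 (minus, chr1:1407294-1407367) by -0.70, and MRPL18 (plus, chr6:159790411-159790466) by -0.58. MRPS18A (minus, chr6:43687792-43687852) changed by -0.79 and MRPL58 (plus, chr17:75012632-75012669) by -0.88. The others are MRPL33 (plus, chr2:27771681-27771718; -0.03), MRPS22 (plus, chr3:139343877-139343951; -0.21) and MRPS31 (minus, chr13:40771191-40771252; 0.35).
MRPS34: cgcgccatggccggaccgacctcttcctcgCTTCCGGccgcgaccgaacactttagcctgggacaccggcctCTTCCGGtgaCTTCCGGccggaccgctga
MRPL20: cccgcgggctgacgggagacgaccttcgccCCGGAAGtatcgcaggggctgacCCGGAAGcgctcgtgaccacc
MRPL18: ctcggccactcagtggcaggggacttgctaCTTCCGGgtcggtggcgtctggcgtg
MRPS18A: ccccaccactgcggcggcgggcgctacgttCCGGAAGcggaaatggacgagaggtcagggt
MRPL58: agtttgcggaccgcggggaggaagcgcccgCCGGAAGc
MRPL33: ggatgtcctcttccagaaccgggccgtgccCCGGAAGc
MRPS22: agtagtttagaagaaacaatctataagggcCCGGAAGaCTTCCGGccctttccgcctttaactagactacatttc
MRPS31: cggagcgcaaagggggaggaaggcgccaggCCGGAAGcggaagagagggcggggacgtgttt
A match describes these letters and is not shown to be a binding site, since binding was not tested.

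Some of these genes start head to head with a neighbour on the other strand, and the pairs differed. MRPL46 and MRPS11, of different subunits, start 320 bases apart, and both fell (-0.44 and -0.49). Their calls were near the threshold (limma adjusted p 0.0496 and 0.011), and neither gene passed when probe sets were averaged or when the hairpin was left out of the model. MRPS12 starts 181 bases from SARS2, the mitochondrial seryl-tRNA synthetase. SARS2 had intensities of 150 and 173 at 40% and 200 and 173 at 100% confluence, and changed by 0.20 (SE 0.26, limma adjusted p 0.598), while MRPS12 fell by 0.89. MRPS7 starts 273 bases from GGA3, which changed by -0.00 (limma adjusted p 0.992) while MRPS7 fell by 0.91. MRPL49 starts 49 bases from FAU, a cytosolic ribosomal protein gene, and neither passed (0.02 and -0.19).

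Other genes of mitochondrial protein synthesis were examined next. Of proteins of the mitochondrial ribosome without an MRP symbol, and the insertase OXA1L, 4 of 6 were measured and 1 fell: GADD45GIP1, a large-subunit protein (-0.65, limma adjusted p 0.000711). DAP3, the GTP-binding protein of the small subunit, had intensities of 2454 and 1676 at 40% and 1701 and 2153 at 100%, with ratios of -0.53 (ns) and 0.36 (p73 shRNA). Of 18 genes of ribosome assembly and ribosomal RNA modification above the filter 9 fell and 1 rose, with a median of -0.42. Among those that fell were NGRN (-0.66), the RNA helicases DDX28 (-0.64) and DHX30 (-0.60), and the protease AFG3L2 (-0.59). The 1 that rose was TFB1M, the dimethyltransferase of the small-subunit ribosomal RNA, from 374 and 373 at 40% to 779 and 723 at 100% (0.99, limma adjusted p 1.61e-06).

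Of 9 translation factors and messenger RNA binding proteins 5 fell and none rose (median -0.38). They included C1QBP, from 5446 and 4708 to 2434 and 2596 (-1.01, limma adjusted p 3.61e-11), the elongation factor GUF1 (-0.87), the COX1 translational activator TACO1 (-0.69) and the elongation factor TUFM (-0.48). Of 16 genes listed under mitochondrial transcription and RNA processing 4 fell (median -0.27). The list also holds the DNA replication genes POLG, POLG2, SSBP1 and TWNK. Those that fell were TWNK, the replicative helicase (-0.83), the elongation factor TEFM (-0.73), the tRNA 3' nuclease ELAC2 (-0.72) and the transcription factor TFB2M (-0.51). TFB2M had ratios of -0.87 with ns and only -0.14 with p73 shRNA. The polymerase POLRMT (0.01) and the DNA-packaging factor TFAM (-0.01) did not pass. Of 23 chaperones and import proteins 13 fell and none rose (median -0.55), with TIMM10 at -1.34, TOMM22 at -1.30, GRPEL1 at -1.05 and TOMM40 at -0.99. The ratios of TOMM22 lay far apart, at -0.71 with ns and -1.88 with p73 shRNA. Its intensities were 717 and 1615 at 40% and 434 and 430 at 100% confluence. TIMM10 had ratios of -1.05 with ns and -1.64 with p73 shRNA.

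The mitochondrial aminoacyl-tRNA synthetases and tRNA amidation enzymes were mixed, with 2 of 12 lower, CARS2 (-0.66) and QRSL1 (-0.54), and 1 higher, YARS2 (0.57). Of 7 nuclear regulators of mitochondrial genes above the filter, the coactivator PPRC1 (-0.67), the GABP subunit GABPB1 (-0.58) and MYC (-0.38) fell, and YY1 rose (0.51). The call of MYC was near the threshold (limma adjusted p 0.0481), with ratios of -0.66 with ns and -0.10 with p73 shRNA. NRF1 changed by -0.05 and did not pass.

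Products of the mitochondrial ribosome join nuclear-encoded subunits of oxidative phosphorylation. Of 65 nuclear genes of oxidative phosphorylation, chosen by symbol, 10 fell and 5 rose, with a median of -0.02. The list is wider than the partners of those products, since it also holds SDHA, SDHC, SDHD and ATP5IF1. Of 53 cytosolic ribosomal protein genes 20 fell and none rose, with a median of -0.27; it was -0.14 with ns and -0.38 with p73 shRNA. The mitoribosomal medians with these hairpins, -0.38 and -0.37, were nearly equal over all 47 genes. By subunit they were -0.32 and -0.31 (large), and -0.40 and -0.56 (small). Whether the mitoribosomal genes differ from either group was not tested, and probe sets of cytosolic ribosomal proteins can bind transcripts of their many pseudogenes. The cytosolic group also lies at the bright upper end, with a median log2 value of 13.93. The intensity at the 99th percentile went from 11420 at 40% to 10196 at 100% with ns shRNA. With p73 shRNA it went from 13157 to 10869. The part of this upper end in the cytosolic medians was not tested.

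**Figure D5:**
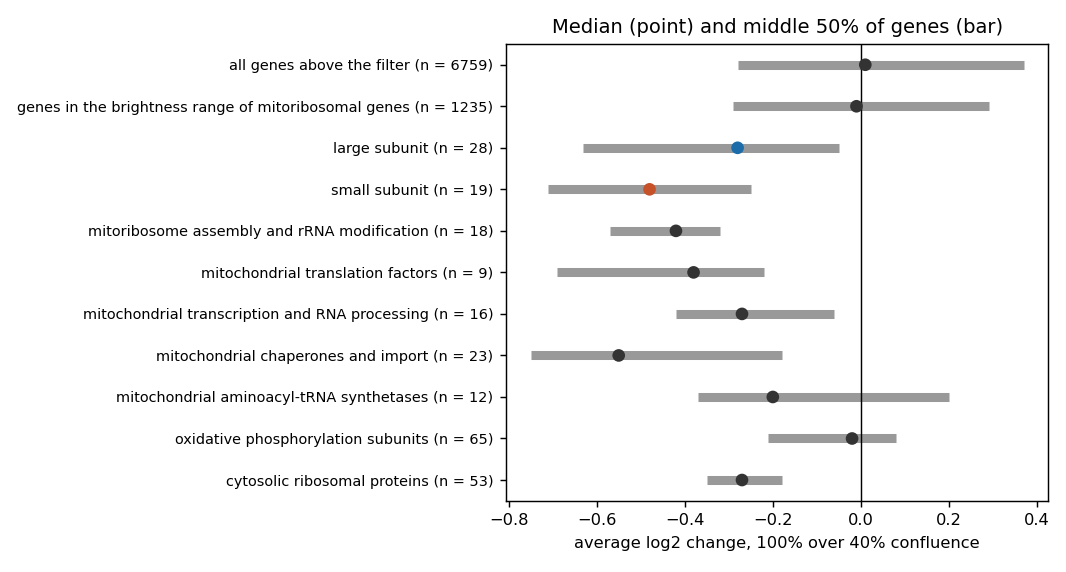
Median (point) and middle 50% of genes (bar) of the average log2 change at 100% over 40% confluence (x axis) for the mitoribosomal subunits, other gene lists of mitochondria and ribosomes, and all genes above the filter; n is the number of genes. The medians of assembly factors (-0.42), translation factors (-0.38) and import proteins (-0.55) lie left of 0 like both subunits. So do those of cytosolic ribosomal proteins (-0.27), transcription and RNA processing (-0.27) and synthetases (-0.20). That of oxidative phosphorylation (-0.02) lies close to 0.

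The effect of targeting p73 was then examined over both stages. Of the 47 mitoribosomal genes 1 rose, MRPL24, and none fell. Of all genes tested, 1.14% rose and 1.58% fell. MRPL24, a large-subunit protein near the mouth of the exit tunnel, had intensities of 518 (ns) and 1502 (p73 shRNA) at 40%, and of 1069 and 1201 at 100% confluence. Its log2 ratio was 1.52 at 40% and 0.17 at 100%, with an average of 0.84 (SE 0.16, limma adjusted p 6.14e-05). The ns array at 40%, where its single probe set was low, stood apart from the other 3. In a limma model with no intensity trend its adjusted p was 0.12, and with no brightness filter 0.464.

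None of the other 46 genes passed the test. The median log2 change of all 47 was 0.14, with 0.13 at 40% and 0.12 at 100% confluence, against -0.00 for all genes, and 28 of the 47 were brighter with p73 shRNA at 40% and again at 100%, as were 1963 of all 6759. At an unadjusted p below 0.05 there were 10 of 47, as against 922 of 6759. MRPL49 had intensities of 1139 and 1665 at 40% and of 1216 and 1613 at 100%, so both p73 shRNA arrays were above both ns arrays, with an average of 0.47 (limma adjusted p 0.0691). MRPL57 averaged 0.39 (limma adjusted p 0.115) and MRPS7 0.39 (limma adjusted p 0.162). The lowest average was that of MRPL19, at -0.41 (limma adjusted p 0.197), with ratios of -0.77 and -0.05.

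Both p73 shRNA arrays lay above both ns arrays for 8 of the 47 genes, all 8 of the large subunit, and for 10.5% of all genes. Both lay below for 3 of the 47, of which 2 were of the large subunit, and for 10.9% of all genes. The medians were 0.16 for the large and 0.13 for the small subunit, and their direction was the same after quantile normalization (0.18 and 0.12). Cytosolic ribosomal proteins had a median of 0.24, with 0.37 at 40% and 0.13 at 100% confluence. The p73 shRNA array at 40% had the brightest upper end, with an intensity at the 99th percentile of 13157 against 10196 to 11420 on the others, and its part in these shifts was not tested. Across the 47 genes the ratios at both stages correlated with r = 0.16 and rho = 0.24, against r = 0.28 across all genes. YARS2, which charges mitochondrial tRNA with tyrosine, was the only mitochondrial synthetase called: it fell with p73 shRNA by 0.95 (limma adjusted p 0.000352), from 465 to 236 at 40% and from 702 to 355 at 100%. Of 65 oxidative phosphorylation genes 1 rose, ATP5MC1 (0.63, limma adjusted p 0.00334). Of 23 chaperones and import proteins 1 rose, TOMM22 (0.57, limma adjusted p 0.0441), with ratios of 1.16 at 40% and -0.01 at 100%. Of 53 cytosolic ribosomal protein genes 2 rose, RPL37A (0.51, limma adjusted p 0.00862) and RPL23A (0.48, limma adjusted p 0.0192). None fell in these 3 lists.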

How the data were processed

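Per the labels, trizol was used to extract total RNA, which was biotin-labelled by Affymetrix's standard protocol. The authors deposited 1 linear intensity per probe set and array, and no source used here names the software behind it. From the values, each array has the same mean, 500.1 to 500.2, after trimming 2% at either end, so the intensities were used as deposited, with no further scaling. Of the 22277 probe sets 62 were controls, and 19064 of the rest carried 1 gene in the platform annotation. Symbols were updated through Entrez identifiers with RefSeq (GRCh38.p14), and 19052 matched. Coordinates are given only for promoter windows, since the values name no build.

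As pseudocount, the 20th percentile of the values (11.55) was added, which shrinks the ratios of dim genes, and the filter is the median of probe set means. The model (limma 3.58.1, R 4.3.3) held confluence and hairpin as additive terms with empirical Bayes moderation and an intensity trend, and its tests are two-sided. It has 1 residual degree of freedom, and the trend gave infinite prior degrees of freedom, so each gene was given the spread typical of its brightness, taken as known. They were 15.8 in the model with no trend. The residual is the difference between a gene's confluence ratios with the hairpins, so a true difference between hairpins would count as spread. The p-values rest on that spread on these 4 arrays, which may be technical, and not on replicates. With the trend it is pooled over genes of like brightness. A gene's own difference, such as the -1.35 of MRPL24, then does not set its p-value. Alternatives were quantile normalization, median centring, other pseudocounts and filters, the mean of probe sets, 1 row per probe set, no trend, the other factor left out, and subunits by place in the ribosome.

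The genes named are preset ones (the MRPS18 relatives, MRPS30, MRPL58, MRPL12, MRPS12, MRPL13, MRPL15, MRPS28 and DAP3), up to 8 with the largest called change per direction, those brightest and dimmest, the 4 whose ratios differ most, and up to 4 called genes per other list. Other names complete a count, or illustrate probe sets, neighbours and genes that did not pass; these were picked with the values known. The members, lists and tests were chosen with earlier results of these data known; the split by bacterial counterpart (and its form with the S18 relatives moved), the brightness range, the neighbours, the promoter stretches, and the cytosolic ribosomal and oxidative phosphorylation groups were added after the values were seen. Figures were drawn with matplotlib 3.10.9.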

Additional observations from a re-analysis of the deposited data

How the results depend on the processing

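No paired analysis was possible because, with 1 array per group, replicate numbers pair no samples; the model itself compares the stages within each hairpin. The 24 mitoribosomal genes that fell at confluence became 17 with the hairpin left out of the model and 26 with median-centred arrays, the range over models with 1 row per gene, and there were 18 at an adjusted p below 0.01, a threshold added after seeing the data. With 1 row per probe set, 27 of the 56 mitoribosomal probe sets fell and 1 rose. Of the 24 genes, 24 were called after quantile normalization, 19 without the intensity trend, 19 without the brightness filter and 19 with the mean of probe sets. The large-subunit median at confluence moved from -0.28 to -0.30 (quantile normalization), -0.33 (median-centred arrays), -0.27 (pseudocount at the 40th percentile), -0.27 (no filter) and -0.32 (subunit by place in the ribosome), and that of the small subunit from -0.48 to -0.30 with the mean of probe sets. For p73 shRNA the large-subunit median moved from 0.16 to 0.14 with the mean of probe sets and by place in the ribosome. The limma model then called 0 mitoribosomal genes with no filter, the mean of probe sets, no trend, or confluence left out, and at an unadjusted p below 0.05 there were 9, 12, 5 and 0; the cause was not tested. Over all genes the model called 184 for p73 shRNA, against 105 after quantile normalization, 39 with the mean of probe sets, 74 with no trend, 4 with no filter and 0 with confluence left out. For confluence it called 2471, against 1555 with no filter and 1345 with the hairpin left out. With the mean of probe sets the p73 shRNA averages of MRPS12 (-0.06), MRPS14 (-0.12), MRPS18B (0.08) and MRPS30 (-0.16) changed sign, as did MRPS18B at confluence (-0.25), because dimmer probe sets then count. MRPS28 passed at confluence with median-centred arrays and with the mean of probe sets. Signal over background limits MRPL41, MRPL44, MRPL52 and MRPS18C, which are not shown to be absent or unchanged.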
